A study of Mus musculus with 15 samples.

Results

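Messenger RNA of 34 genes of the ATF4 integrated stress response was followed across E0771 cells that carried an empty vector or 1 of 4 forms of the gene Malt1. The genes were chosen by symbol from a list of amino acid synthesis and transport genes, one-carbon enzymes and stress regulators. That list was chosen with earlier results of these data known. Counts of its members set against all genes are therefore descriptive and not independent support. All 34 were among the 55571 gene rows of the count table. Enough counts for a test were present for 31 of them, among 14571 genes tested in all. E0771 is a mouse mammary tumour line, and Malt1 encodes a scaffold and protease of immune signalling.

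The 5 groups were the empty vector (named Vector), wild-type Malt1 (Malt1_WT), the Malt1 PD mutant (Malt1_PD), and the substitutions Malt1_V87R and Malt1_L88D, with 3 libraries each and no other treatment or T cells in the culture. The labels do not say whether a group was a pool or a clone of cells, or whether its 3 libraries came from separate cultures, so a p-value here weighs only library-to-library spread, part of which can be technical. CPM values are a gene's counts per 1e+06 counts of its library, with the library total scaled by the trimmed mean of M values (TMM), and values with ± are means and SD over 3 libraries unless SE is written.

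The integrated stress response starts when kinases phosphorylate the translation factor eIF2, which lowers most protein synthesis but favours translation of the ATF4 mRNA. ATF4, a basic leucine zipper transcription factor, then raises genes that make, take up and charge amino acids, together with regulators such as CHOP (from Ddit3) and TRIB3. Many tumour lines keep part of this programme active for amino acid supply and redox balance. ATF4 binds with C/EBP partners at a composite element, the C/EBP-ATF response element, written here as TGATGNAA, where N is any base.

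The promoters of the members were read for that element. RefSeq windows on GRCm38.p6, from 250 bases before to 50 bases from the annotated start, were present for 30 of the 34 genes, all but Aldh1l2, Cth, Slc7a5 and Slc1a5. On either strand, 10 of those 30 genes (33.3%) held the 8 letters, against 1219 of all 27025 genes with a window (4.51%). By windows, since a gene may have several, the share was 10 of 35 (28.6%) against 1304 of 32851 (3.97%). One motif was searched, so no overlap between motifs arose. The 7 matches below are shown with 30 bases each on the strand of the gene, because they lie in genes whose values the results turn on, and the capitals mark the element or its reverse complement.
Slc7a11, first match: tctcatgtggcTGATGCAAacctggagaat
Slc7a11, next match: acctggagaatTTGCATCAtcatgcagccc
Chac1: cttccctgccgTTGCATCActcctgccagg
Trib3: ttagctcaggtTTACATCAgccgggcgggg
Nupr1: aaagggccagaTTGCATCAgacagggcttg
Asns: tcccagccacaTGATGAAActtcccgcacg
Slc1a4: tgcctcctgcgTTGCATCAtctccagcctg
These lie at chr3:50443661-50443690 and chr3:50443642-50443671 (minus strand) for Slc7a11, and at chr2:119351038-119351067 (plus strand) for Chac1. The other 4 lie at chr2:152344028-152344057 for Trib3, chr7:126625562-126625591 for Nupr1, chr6:7693214-7693243 for Asns and chr11:20332699-20332728 for Slc1a4, all on the minus strand. With the first transcribed base counted as 0, the element began at -66 and -47 in Slc7a11, -193 in Chac1, -110 in Nupr1, -23 in Asns, -4 in Slc1a4 and 14 in Trib3. Of the 7, 5 read TTGCATCA or its reverse complement TGATGCAA, Trib3 read TTACATCA and Asns TGATGAAA. Atf3, Pycr1, Pck2 and Vldlr also held a match. A match is a run of letters and says nothing of binding, and a window without one holds no such run and no more.

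Malt1 was read first, as the check of the labels. It stood at 26.4, 30.2 and 27.8 CPM with the vector and at 207, 193 and 205 for Malt1_WT, 259.7, 247 and 243 for Malt1_PD, 279, 279 and 281 for Malt1_V87R and 258, 245 and 251 for Malt1_L88D. All 12 libraries labelled with a Malt1 form were above the vector. The check does not show which form a library carried, and the values of Malt1_PD and Malt1_L88D overlapped. Every Malt1_WT library had less Malt1 RNA than any library of the other Malt1 forms. Level and form of Malt1 thus differ together in comparisons with Malt1_WT, and the part of level in the results was not tested. Counts per gene do not separate the introduced from the cells' own transcript.

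Library totals ran from 15471746 to 21458457 counts. The labelled cancer cell was checked against 5 marker lists. Of 8 epithelial markers only Krt8 and Epcam averaged over 1 CPM, and the list summed to 93.5 to 134 CPM. The T and NK cell list summed to 0.186 to 1.07 CPM. Macrophage and dendritic markers, of which 7 of 14 averaged over 1 CPM, summed to 45.3 to 48.0 CPM with the vector, 74.1 to 78.5 for Malt1_WT, 80.5 to 85.2 for Malt1_PD, 42.5 to 46.2 for Malt1_V87R and 45.3 to 67.5 for Malt1_L88D. Most of that sum came from Cd68, Cd14, Lyz2 and Fcer1g, while the leukocyte markers Ptprc, Itgam and Tyrobp reached at most 0.295, 0.288 and 0.333 CPM in any library. Members of the list did not all move alike. Means here are with the vector, in Malt1_WT and in Malt1_PD, in that order. Cd68 averaged 12.04, 25.2 and 19.01 CPM, and Cd14 8.03, 23.4 and 22.9. Fcer1g was lower in both groups, at 16.9, 12.9 and 14.1 CPM. Lyz2 was lower on average only in Malt1_WT, at 5.66, 4.63 and 14.3 CPM. The same held for C1qb and C1qc, both below 1 CPM. The low members Flt3, Itgax, Csf1r and Adgre1 were higher in both groups. Flt3 averaged 0.26, 1.94 and 2.49 CPM, and Itgax 2.23, 4.35 and 4.27. Csf1r averaged 0.962, 1.57 and 2.72 CPM, and Adgre1 0.133, 1.23 and 0.592. In Malt1_L88D Csf1r averaged 1.67, Adgre1 0.586 and Lyz2 13.7 CPM. Endothelial markers, of which 2 of 7 (Pecam1 and Vwf) averaged over 1 CPM, summed to 18.1 to 19.5 CPM with the vector, 21.3 to 24.2 for Malt1_WT, 22.1 to 24.2 for Malt1_PD, 14.9 to 15.7 for Malt1_V87R and 15.2 to 17.6 for Malt1_L88D. The fibroblast list, led by Pdgfra, Col3a1 and Pdgfrb, summed to 384 to 466 CPM, above the epithelial list in every library. The sums of the macrophage and endothelial lists were thus highest in the same 2 groups as the stress genes. The macrophage sum was also above the vector in Malt1_L88D replicates 2 and 3. The part of other cell types in the results was not tested. Within Malt1_L88D, the macrophage list summed to 45.3 CPM in replicate 1, close to the vector, and to 67.5 and 61.1 in replicates 2 and 3. Lyz2 was 5.49, 19.5 and 16.2 CPM in replicates 1, 2 and 3. The 34 stress genes together summed to 4092, 4108 and 4085 CPM in those libraries, and a relation between the sums was not tested. In bulk RNA a change in how many cells express a gene and a change in RNA per cell cannot be told apart.

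The stress response genes were higher in Malt1_WT and Malt1_PD than in the other 3 groups. Those 3 groups lay closer together, with the Malt1_V87R and Malt1_L88D libraries slightly above the vector in the members' sum. Together the 34 genes took 0.395% to 0.406% of counts with the vector, 0.596% to 0.627% for Malt1_WT, 0.573% to 0.597% for Malt1_PD, 0.417% to 0.424% for Malt1_V87R and 0.412% to 0.416% for Malt1_L88D. Every Malt1_WT and Malt1_PD library was above all 9 others for 26 of the 31 tested genes, and below them for 0. Over 14570 tested genes without Malt1, 13.7% stood above in that way and 12.1% below. The 5 exceptions were Atf5, Eif2ak3, Phgdh, Pycr1 and Cth. By group mean, Malt1_WT was the highest of the 5 groups for 19 genes and Malt1_PD for 12, and the vector was the lowest for 21. Group values and tests follow by role, from the transcription factors to the enzymes and transporters they regulate.

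**Figure D1:**
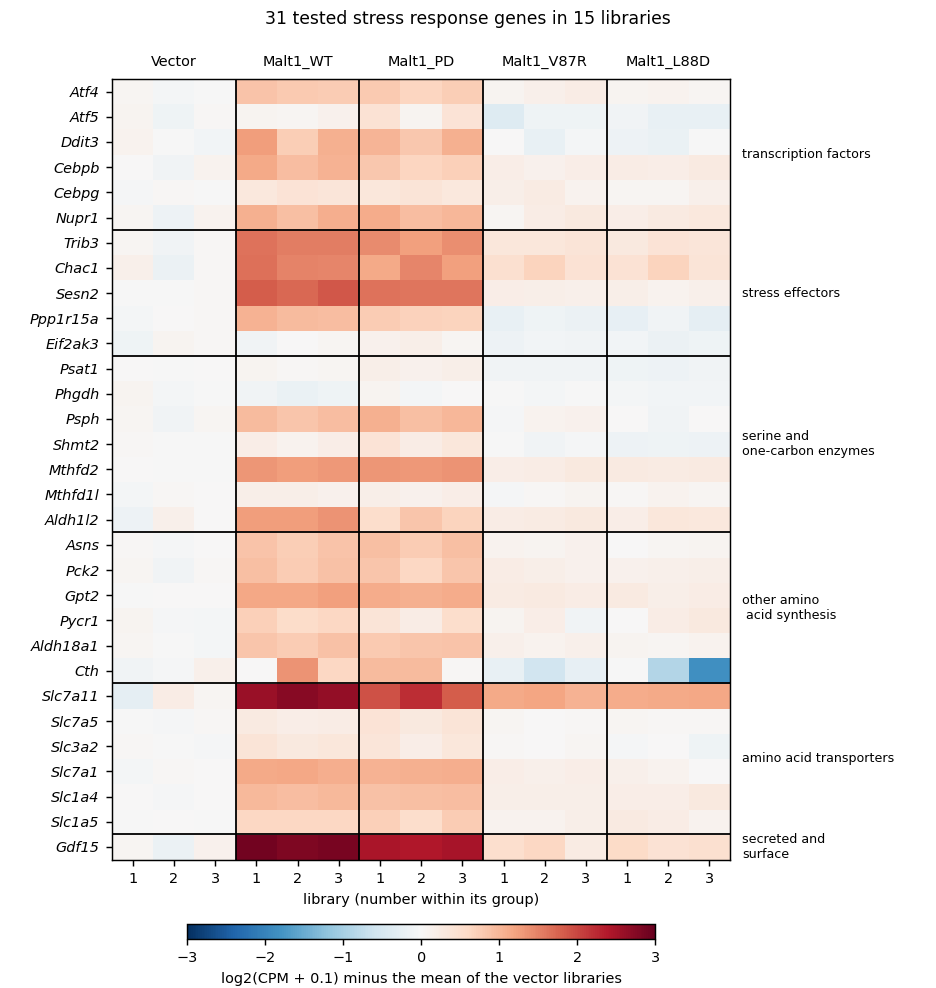
Colour gives log2(CPM + 0.1) minus the mean of the 3 vector libraries, for the 31 tested genes (rows, by role) in the 15 libraries (columns, by group). The Malt1_WT and Malt1_PD columns are red in most rows, while the Malt1_V87R and Malt1_L88D columns are pale, with Slc7a11 the clearest exception.

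In Malt1_WT against the vector, 26 of the 31 tested members rose, where 27.2% of all 14571 tested genes did, and 1 fell, where 27.7% of all did. The members' median log2 fold change was 0.90, and that of all tested genes was -0.01. A rise of at least 2-fold was seen for 12 members, against 7.85% of all genes. The gene that fell was Phgdh, and Atf5, Eif2ak3, Psat1 and Cth passed in neither direction. In Malt1_PD against the vector, 28 members rose and 0 fell, where 22.8% and 22% of all genes did, with a median of 0.76 against 0.00 for all genes. Of these, 9 rose at least 2-fold, against 5.32% of all genes. Eif2ak3, Phgdh and Cth did not pass. These comparisons and those of the other 2 forms share the vector libraries.

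Among the transcription factors, 5 of 6 tested genes rose in Malt1_WT and 6 of 6 in Malt1_PD, where 27.2% and 22.8% of all genes did. Atf4 itself (chr15:80255184-80257541), the centre of the response, was counted at 392, 361 and 370.1 CPM with the vector, at 679, 643 and 635 (Malt1_WT), at 647, 581 and 620.4 (Malt1_PD), at 398, 419 and 437 (Malt1_V87R) and at 399, 406 and 389 (Malt1_L88D). Each Malt1_WT and Malt1_PD library exceeded the other 9, and the Malt1_WT and Malt1_PD values overlapped. The log2 fold change of Atf4 over the vector was 0.80 ± 0.04 (SE, edgeR adjusted p = 1.9e-15) in Malt1_WT and 0.72 ± 0.04 (SE, edgeR adjusted p = 3.0e-14) in Malt1_PD. Levels per kilobase of exon put Phgdh highest of the 34 genes with the vector, at 172 CPM per kb, and Atf4 next, at 159. In Malt1_WT the highest levels were 277 CPM per kb for Atf4, 235 for Cebpb and 209 for Asns.

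Ddit3 (chr10:127290774-127296288) encodes CHOP, a factor that ATF4 induces and that acts under prolonged stress. It was counted at 21, 19.5 and 18.5 CPM with the vector, at 47.3, 33.1 and 41.5 (Malt1_WT), at 39.7, 34.3 and 40.9 (Malt1_PD), at 19.8, 16.9 and 19 (Malt1_V87R) and at 17.5, 17 and 19.6 (Malt1_L88D). The 6 Malt1_WT and Malt1_PD libraries were all above the rest, and the vector, Malt1_V87R and Malt1_L88D values overlapped. Its log2 fold change over the vector was 1.04 ± 0.11 (SE, edgeR adjusted p = 6.2e-08) in Malt1_WT and 0.96 ± 0.11 (SE, edgeR adjusted p = 2.4e-07) in Malt1_PD. Its exons overlap those of Mars, and the strand setting of the counting is not given in the sources used here. Exons of Atf5, Cebpb, Cebpg, Ppp1r15a, Eif2ak3, Aldh1l2, Psph, Shmt2 and Pck2 also overlap those of other genes on either strand. Cebpb (chr2:167688915-167690418), whose product can pair with ATF4, was counted at 173, 159 and 186 CPM with the vector, at 382, 325 and 355 (Malt1_WT), at 302, 270.4 and 284 (Malt1_PD), at 198, 188 and 199 (Malt1_V87R) and at 203, 197 and 208 (Malt1_L88D). Here the 3 Malt1_WT libraries also exceeded the 3 of Malt1_PD. Cebpb rose by 1.03 ± 0.06 (SE, edgeR adjusted p = 5.1e-13) in Malt1_WT and by 0.72 ± 0.06 (SE, edgeR adjusted p = 3.7e-10) in Malt1_PD on the log2 scale.

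Nupr1 (chr7:126623249-126630861), a small stress-induced nuclear protein whose promoter match is shown above, was counted at 35.6, 30.6 and 36.8 CPM with the vector, at 72, 64.3 and 72.5 (Malt1_WT), at 74.5, 64.9 and 68.7 (Malt1_PD), at 35.8, 40.1 and 41.7 (Malt1_V87R) and at 39, 41 and 42.4 (Malt1_L88D). Values in Malt1_WT and Malt1_PD overlapped and were close to 2-fold those of the vector, at 1.01 ± 0.07 (SE, edgeR adjusted p = 1.1e-12) and 1.01 ± 0.07 (SE, edgeR adjusted p = 1.5e-12) on the log2 scale. Cebpg, another partner of ATF4, changed less, by 0.36 in Malt1_WT and 0.35 in Malt1_PD, both past the threshold. Atf5, a relative of ATF4, had 13.1 ± 1.06 CPM with the vector and 13.9 ± 0.403 in Malt1_WT. Its log2 fold change was 0.08 ± 0.10 (SE, edgeR adjusted p = 0.54) there and 0.32 ± 0.10 (SE, edgeR adjusted p = 0.0084) in Malt1_PD, a rise that did not pass without Malt1_PD replicate 1. Atf3, another stress-induced factor, was too low to test: its raw counts were 1, 1 and 2 with the vector, 5, 7 and 11 for Malt1_WT, 0, 6 and 3 for Malt1_PD, 3, 2 and 1 for Malt1_V87R and 3, 0 and 1 for Malt1_L88D. All 3 Malt1_WT libraries had more Atf3 counts than the vector libraries, at a depth where single counts decide the value.

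The stress effectors summed to 226 ± 4.95 CPM with the vector, 532 ± 14.3 for Malt1_WT, 467 ± 11.6 for Malt1_PD, 239.7 ± 3.87 for Malt1_V87R and 237 ± 5.43 for Malt1_L88D. Sesn2 (chr4:132492032-132510501), a leucine sensor that restrains mTORC1, was counted at 43.1, 43 and 44.8 CPM with the vector, at 155, 145 and 159 (Malt1_WT), at 136, 133 and 133 (Malt1_PD), at 50.2, 49.5 and 48.8 (Malt1_V87R) and at 49.6, 46.9 and 48.5 (Malt1_L88D). All 5 groups but Malt1_V87R and Malt1_L88D were separate from each other, with Malt1_WT highest. Sesn2 rose 3.49-fold in Malt1_WT, a log2 value of 1.81 ± 0.05 (SE, edgeR adjusted p = 7.6e-23), and 3.07-fold in Malt1_PD, a log2 value of 1.62 ± 0.05 (SE, edgeR adjusted p = 1.9e-21).

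Trib3 (chr2:152337422-152344032), a pseudokinase that feeds back on ATF4 and CHOP, was counted at 62.3, 55.4 and 61.5 CPM with the vector, at 185, 174 and 174 (Malt1_WT), at 159.9, 139 and 158 (Malt1_PD), at 75.3, 76.2 and 77.6 (Malt1_V87R) and at 73.3, 79.5 and 76.3 (Malt1_L88D). Malt1_WT was above Malt1_PD in all libraries, both were above the rest, and the vector was lowest. It rose by 1.57 ± 0.05 (SE, edgeR adjusted p = 4.7e-20) in Malt1_WT and by 1.35 ± 0.05 (SE, edgeR adjusted p = 3.2e-18) in Malt1_PD. Chac1 (chr2:119351229-119354381), which degrades glutathione, was counted at 7.98, 6.32 and 7.34 CPM with the vector, at 22.7, 20.4 and 20.1 (Malt1_WT), at 15.9, 19.9 and 17 (Malt1_PD), at 10.1, 11.4 and 9.77 (Malt1_V87R) and at 9.71, 11.4 and 9.45 (Malt1_L88D). As for Trib3, Malt1_WT was highest, Malt1_PD next and the vector lowest, and Malt1_V87R and Malt1_L88D overlapped between them. It rose by 1.53 ± 0.11 (SE, edgeR adjusted p = 8.3e-13) in Malt1_WT and by 1.27 ± 0.11 (SE, edgeR adjusted p = 8.1e-11) in Malt1_PD.

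Ppp1r15a (chr7:45522916-45526268), the GADD34 subunit that directs eIF2 dephosphorylation, was counted at 66.9, 70.3 and 71.1 CPM with the vector, at 142, 134 and 132 (Malt1_WT), at 117, 112 and 111 (Malt1_PD), at 59.4, 63.9 and 61.4 (Malt1_V87R) and at 59, 64.8 and 57.1 (Malt1_L88D). It was the 1 effector for which Malt1_V87R and Malt1_L88D lay below the vector in every library, while Malt1_WT and Malt1_PD lay above. It rose by 0.97 ± 0.05 (SE, edgeR adjusted p = 7.1e-16) in Malt1_WT and by 0.71 ± 0.05 (SE, edgeR adjusted p = 1.3e-12) in Malt1_PD. Eif2ak3, which encodes the eIF2 kinase PERK, stood at 45.4 ± 3.39 CPM with the vector, 45 ± 2.35 in Malt1_WT and 49.2 ± 2.26 in Malt1_PD. Its values overlapped between the vector and each of these groups, with log2 fold changes of -0.01 ± 0.06 (SE, edgeR adjusted p = 0.89) and 0.12 ± 0.06 (SE, edgeR adjusted p = 0.11).

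**Figure D2:**
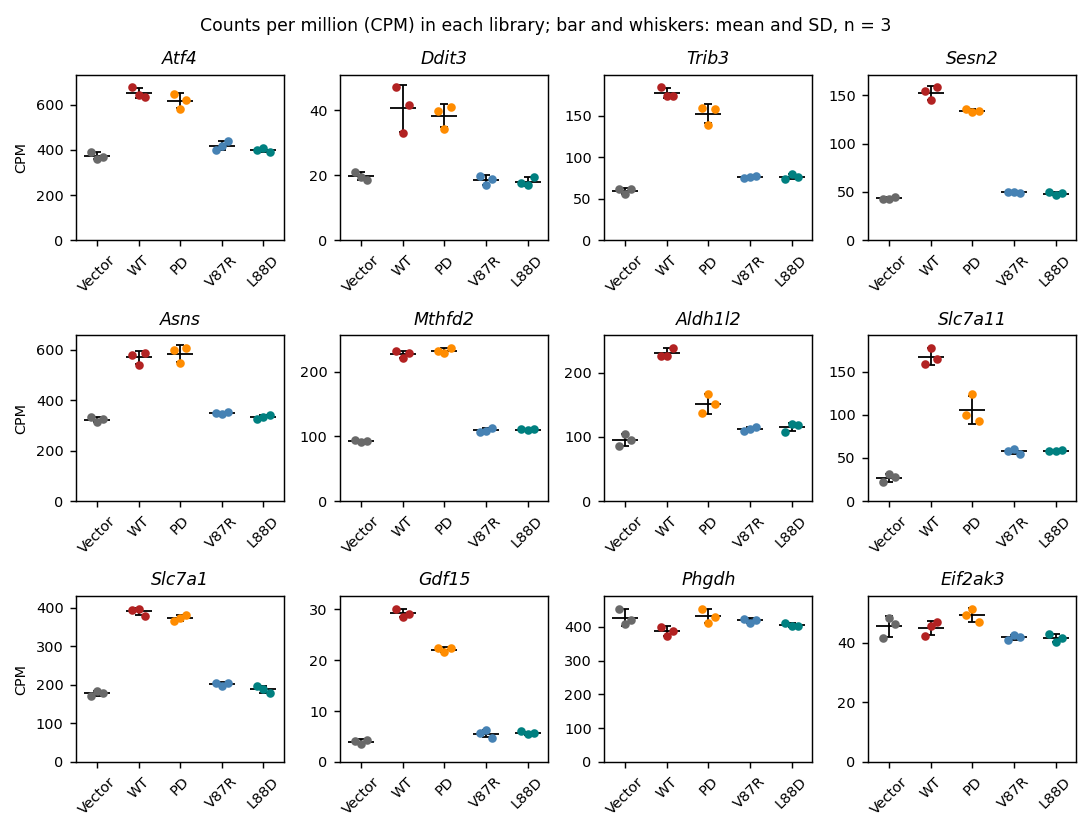
Points are single libraries, with the mean (bar) and SD (whiskers) of 3 per group, in CPM on axes that start at 0, for 12 of the genes. Atf4 stood at 375 CPM with the vector and 652 in Malt1_WT, while Phgdh and Eif2ak3 show no such step.

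The enzymes of serine synthesis and one-carbon metabolism were split. The mitochondrial folate enzymes Mthfd2 and Aldh1l2 rose over 2-fold in Malt1_WT, Psph rose slightly less, and the 2 serine synthesis genes upstream of it, Phgdh and Psat1, did not pass as higher there. In sum the 7 genes went from 1676 ± 19.3 CPM with the vector to 2035 ± 41.6 in Malt1_WT and 2087 ± 48.9 in Malt1_PD. Mthfd2 (chr6:83305691-83325908), which oxidises methylene-folate in mitochondria, was counted at 93.6, 91.6 and 92.2 CPM with the vector, at 231, 221 and 228 (Malt1_WT), at 232, 228 and 237 (Malt1_PD), at 106, 108 and 113 (Malt1_V87R) and at 111, 109.7 and 111 (Malt1_L88D). Malt1_WT and Malt1_PD overlapped, far above the rest, and Malt1_V87R and Malt1_L88D overlapped above the vector. It rose by 1.29 ± 0.04 (SE, edgeR adjusted p = 2.2e-21) in Malt1_WT and by 1.33 ± 0.04 (SE, edgeR adjusted p = 2.3e-21) in Malt1_PD.

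Aldh1l2 (chr10:83487450-83534140), the mitochondrial formyl-folate dehydrogenase, was counted at 85.6, 104 and 94.6 CPM with the vector, at 226, 226 and 239 (Malt1_WT), at 137, 168 and 151 (Malt1_PD), at 110.0, 113 and 115 (Malt1_V87R) and at 108, 120.2 and 118 (Malt1_L88D). Here Malt1_PD lay between Malt1_WT and the rest, with no overlap on either side. It rose by 1.28 ± 0.07 (SE, edgeR adjusted p = 9.0e-12) in Malt1_WT and by 0.68 ± 0.07 (SE, edgeR adjusted p = 1.6e-07) in Malt1_PD. Psph (chr5:129765558-129787449), the last enzyme of serine synthesis, was counted at 51.6, 45.8 and 51.1 CPM with the vector, at 96.1, 87.5 and 93.6 (Malt1_WT), at 103, 92.1 and 98.5 (Malt1_PD), at 48.1, 53.2 and 53.7 (Malt1_V87R) and at 49.7, 45.9 and 49.6 (Malt1_L88D). Its Malt1_WT and Malt1_PD values overlapped, and those of the vector, Malt1_V87R and Malt1_L88D overlapped too. It rose by 0.90 ± 0.06 (SE, edgeR adjusted p = 1.6e-13) in Malt1_WT and by 0.98 ± 0.06 (SE, edgeR adjusted p = 2.5e-14) in Malt1_PD.

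Shmt2 (chr10:127517123-127522444), which moves a carbon unit from serine to folate in mitochondria, was counted at 283, 276 and 276 CPM with the vector, at 319.9, 298 and 319 (Malt1_WT), at 371, 326 and 352 (Malt1_PD), at 275, 257 and 271 (Malt1_V87R) and at 251, 254 and 251 (Malt1_L88D). The groups were separate, in the order Malt1_PD, Malt1_WT, vector, Malt1_V87R, Malt1_L88D, but within a narrow range. It rose by 0.17 ± 0.04 (SE, edgeR adjusted p = 0.0016) in Malt1_WT and by 0.33 ± 0.04 (SE, edgeR adjusted p = 1.9e-07) in Malt1_PD. Mthfd1l, the mitochondrial formyl-folate synthetase, rose by 0.16 and 0.17. Psat1, the aminotransferase of serine synthesis, was 454 ± 6.48 CPM with the vector, 473 ± 5.47 in Malt1_WT and 509.9 ± 8.92 in Malt1_PD, with log2 fold changes of 0.06 ± 0.03 (SE, edgeR adjusted p = 0.12) and 0.17 ± 0.03 (SE, edgeR adjusted p = 9.0e-05). In Malt1_WT it was borderline: it passed as higher in 4 of 15 alternatives, with adjusted p = 0.049 by DESeq2, 0.012 with the stricter filter in edgeR, and 0.03 and 0.036 in edgeR fits of the 12 numbered libraries with and without a replicate block. Phgdh, the first enzyme of the same pathway, was 427 ± 24, 387 ± 14.3 and 432 ± 20.1 CPM. It fell by 0.14 ± 0.04 (SE, edgeR adjusted p = 0.0039) in Malt1_WT, a call that was lost without Vector replicate 1 or Malt1_WT replicate 2, and 28.1% of its 100-base stretches occur in 8 other genes, so its counts are uncertain.

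Of the other genes of amino acid synthesis, 5 of 6 rose in both Malt1_WT and Malt1_PD, where 27.2% and 22.8% of all genes did. Their sum went from 565 ± 14.2 CPM with the vector to 1029.8 ± 42.8 and 1027 ± 46.5. Asns (chr6:7675169-7693254), asparagine synthetase, was counted at 332, 315 and 325 CPM with the vector, at 582, 541 and 589 (Malt1_WT), at 601, 548 and 609 (Malt1_PD), at 348, 344 and 353 (Malt1_V87R) and at 328, 336 and 342 (Malt1_L88D). Values of Malt1_WT and Malt1_PD overlapped, and those of Malt1_V87R were only just above the vector. Asns rose by 0.82 ± 0.04 (SE, edgeR adjusted p = 3.4e-16) in Malt1_WT and by 0.86 ± 0.04 (SE, edgeR adjusted p = 1.8e-16) in Malt1_PD. Gpt2 (chr8:85492576-85527560), the mitochondrial alanine transaminase, was counted at 60.7, 61.5 and 61.2 CPM with the vector, at 137, 137 and 145 (Malt1_WT), at 132, 128 and 133 (Malt1_PD), at 72.7, 73.8 and 71.6 (Malt1_V87R) and at 73.3, 68.8 and 71.5 (Malt1_L88D). All groups but Malt1_V87R and Malt1_L88D were separate, with Malt1_WT highest and the vector lowest. It rose by 1.19 ± 0.04 (SE, edgeR adjusted p = 1.9e-19) in Malt1_WT and by 1.10 ± 0.04 (SE, edgeR adjusted p = 2.5e-18) in Malt1_PD.

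Pck2 (chr14:55540266-55551242), the mitochondrial PEP carboxykinase, was counted at 70.8, 63.9 and 70.3 CPM with the vector, at 128, 116 and 126 (Malt1_WT), at 122, 105 and 121 (Malt1_PD), at 79.5, 76.6 and 75.2 (Malt1_V87R) and at 74.3, 76.4 and 77.6 (Malt1_L88D). Malt1_WT and Malt1_PD overlapped, above all other libraries. It rose by 0.85 ± 0.06 (SE, edgeR adjusted p = 1.7e-13) and 0.76 ± 0.06 (SE, edgeR adjusted p = 2.7e-12). The proline synthesis gene Aldh18a1 rose by 0.82 in each of these 2 groups, and Pycr1, which completes proline synthesis, by 0.63 and 0.38. Cth (chr3:157894248-157925077), which makes cysteine from cystathionine, was near the limit of detection, with raw counts of 5, 4 and 6 with the vector, 4, 14 and 7 for Malt1_WT, 11, 10 and 5 for Malt1_PD, 4, 3 and 4 for Malt1_V87R and 4, 2 and 0 for Malt1_L88D. These counts overlap between the vector and both of the higher groups, and the log2 fold changes of 0.98 ± 0.55 (SE, edgeR adjusted p = 0.14) and 0.88 ± 0.55 (SE, edgeR adjusted p = 0.21) did not pass. At this depth the 95% interval of Cth in Malt1_WT spanned -0.15 to 2.12.

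All 6 amino acid transporters rose in Malt1_WT and in Malt1_PD, where 27.2% and 22.8% of all genes did. Slc7a11 (chr3:49892526-50443614), the cystine-glutamate exchanger xCT, was counted at 22, 30.8 and 27.5 CPM with the vector, at 159, 178 and 165 (Malt1_WT), at 99.5, 124 and 93.2 (Malt1_PD), at 58.3, 60.2 and 54.5 (Malt1_V87R) and at 57.8, 58.3 and 59.3 (Malt1_L88D). It was the member with the clearest steps: the vector was lowest, Malt1_V87R and Malt1_L88D overlapped at an intermediate level, then came Malt1_PD, then Malt1_WT. Slc7a11 rose 6.3-fold in Malt1_WT, a log2 value of 2.66 ± 0.12 (SE, edgeR adjusted p = 2.6e-10), and 3.96-fold in Malt1_PD, a log2 value of 1.99 ± 0.12 (SE, edgeR adjusted p = 9.3e-09). Its heavy chain partner Slc3a2, shared with the neutral amino acid carrier Slc7a5, rose less, by 0.34 and 0.30, and Slc7a5 by 0.23 and 0.36.

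Slc7a1 (chr5:148327410-148399904), the carrier of arginine and lysine, was counted at 171, 184 and 179.9 CPM with the vector, at 393, 398 and 379 (Malt1_WT), at 365, 372 and 381 (Malt1_PD), at 206, 198 and 204 (Malt1_V87R) and at 197, 190.1 and 179 (Malt1_L88D). Malt1_WT and Malt1_PD overlapped, above the other 9 libraries. It rose by 1.13 ± 0.04 (SE, edgeR adjusted p = 1.0e-19) and 1.07 ± 0.04 (SE, edgeR adjusted p = 8.3e-19). Slc1a4 (chr11:20302180-20332713), a carrier of alanine, serine and cysteine, was counted at 29.7, 28.5 and 29.7 CPM with the vector, at 57.2, 55.4 and 57.5 (Malt1_WT), at 54.1, 54.5 and 55.8 (Malt1_PD), at 33.4, 33.1 and 33 (Malt1_V87R) and at 33.8, 33.6 and 35.7 (Malt1_L88D). Malt1_WT and Malt1_PD again overlapped, and Malt1_L88D lay just above Malt1_V87R. It rose by 0.95 ± 0.05 (SE, edgeR adjusted p = 4.5e-15) and 0.90 ± 0.05 (SE, edgeR adjusted p = 1.8e-14). Slc1a5 (chr7:16781340-16798274), the glutamine carrier ASCT2, was counted at 91.4, 92.3 and 91.6 CPM with the vector, at 142, 141 and 141 (Malt1_WT), at 150.5, 132 and 157 (Malt1_PD), at 99.1, 98.4 and 103 (Malt1_V87R) and at 111, 108 and 98 (Malt1_L88D). The same 6 libraries were highest, with a wide spread in Malt1_PD. It rose by 0.62 ± 0.05 (SE, edgeR adjusted p = 4.1e-11) and 0.68 ± 0.05 (SE, edgeR adjusted p = 8.4e-12).

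Among secreted and surface products, Gdf15 (chr8:70629393-70632456), a stress cytokine, was counted at 4.18, 3.5 and 4.36 CPM with the vector, at 30.2, 28.6 and 29.1 (Malt1_WT), at 22.3, 21.6 and 22.5 (Malt1_PD), at 5.66, 6.23 and 4.76 (Malt1_V87R) and at 5.99, 5.42 and 5.61 (Malt1_L88D). Malt1_WT stood above Malt1_PD, and both stood far above the other groups, whose highest library reached 6.23 CPM. Gdf15 rose 7.23-fold in Malt1_WT, a log2 value of 2.85 ± 0.10 (SE, edgeR adjusted p = 7.5e-20), and 5.47-fold in Malt1_PD, a log2 value of 2.45 ± 0.10 (SE, edgeR adjusted p = 8.3e-18), the largest rise of the tested members in each. Vldlr, a lipoprotein receptor, and Stc2, a secreted glycoprotein, were not tested. Vldlr had summed counts of 0 with the vector, 3 for Malt1_WT, 1 for Malt1_PD, 0 for Malt1_V87R and 1 for Malt1_L88D, and Stc2 had 0 in every group but Malt1_L88D, with 3. A count of 0 allows up to 3 counts in a library, or 0.139 CPM in the deepest vector library, and such limits cover counting error only.

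**Figure D3:**
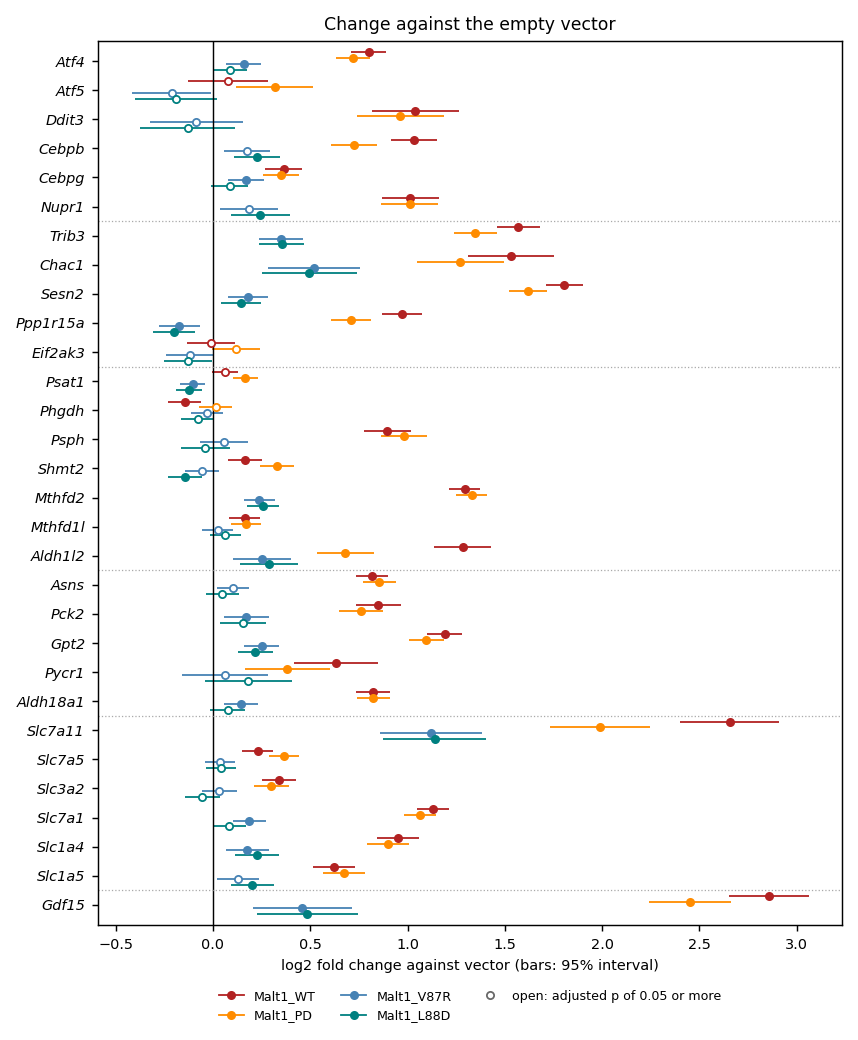
Log2 fold change against the vector with its 95% interval for 30 tested members (Cth, with counts near 0, is left out), for each Malt1 form; filled points passed an edgeR adjusted p of 0.05. Malt1_WT and Malt1_PD points lie to the right for most genes, up to 2.85 for Gdf15. Most Malt1_V87R and Malt1_L88D points lie near 0, with Slc7a11 furthest right and smaller rises for Chac1, Gdf15 and Trib3.

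With the substitutions V87R and L88D the members stayed closer to the vector. In Malt1_V87R against the vector, 14 of 31 members rose and 2 fell, where 7.01% and 4.7% of all genes did, with a median log2 fold change of 0.14. In Malt1_L88D, 12 rose and 3 fell, where 8.96% and 8.43% of all did, with a median of 0.09. Libraries of Malt1_V87R and the vector did not overlap, in either direction, for 21 of 31 members and for 4038 of all 14571 genes. For Malt1_L88D and the vector this held for 18 of 31 members and 5012 of all genes. Only Slc7a11 rose at least 2-fold (as did 1.26% and 1.6% of all genes), at 1.12 ± 0.12 (SE, edgeR adjusted p = 3.3e-05) in Malt1_V87R and 1.14 ± 0.12 (SE, edgeR adjusted p = 2.6e-05) in Malt1_L88D. Trib3 rose by 0.35 ± 0.06 (SE, edgeR adjusted p = 3.5e-05) in Malt1_V87R and by 0.35 ± 0.06 (SE, edgeR adjusted p = 3.1e-05) in Malt1_L88D. Mthfd2 rose by 0.24 ± 0.04 (SE, edgeR adjusted p = 7.2e-05) and 0.26 ± 0.04 (SE, edgeR adjusted p = 2.6e-05), and Chac1 by 0.52 ± 0.12 (SE, edgeR adjusted p = 0.0023) and 0.50 ± 0.12 (SE, edgeR adjusted p = 0.0035). Gpt2 rose by 0.25 and 0.22. Under all 15 alternatives, 6 rises passed in Malt1_V87R (Trib3, Chac1, Mthfd2, Gpt2, Slc7a11 and Slc7a1), and 9 in Malt1_L88D (Cebpb, Trib3, Chac1, Mthfd2, Aldh1l2, Gpt2, Slc7a11, Slc1a4 and Gdf15).

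The other calls against the vector rested on single libraries or settings. The number of members called in Malt1_V87R went from 16 to 10 without Vector replicate 1 or replicate 3, and to 9 without Malt1_V87R replicate 2 or replicate 3. Atf4 was 0.16 ± 0.04 (SE, edgeR adjusted p = 0.014) in Malt1_V87R, lost in 4 of 15 alternatives (without Vector replicate 2 or 3, or Malt1_V87R replicate 2 or 3), and 0.09 ± 0.04 (SE, edgeR adjusted p = 0.17) in Malt1_L88D. Gdf15 was 0.46 ± 0.12 (SE, edgeR adjusted p = 0.013) in Malt1_V87R, lost in 3 of 15, among them without Vector replicate 2 and without Malt1_V87R replicate 2. Ddit3 did not pass in either group, with 95% intervals of -0.32 to 0.15 and -0.37 to 0.12, nor did Asns, with 0.02 to 0.19 and -0.04 to 0.13. The members that fell were Ppp1r15a and Psat1 in both groups, and Shmt2 in Malt1_L88D, with log2 values from -0.20 for Ppp1r15a in Malt1_L88D to -0.10 for Psat1 in Malt1_V87R. Ppp1r15a was lost without Vector replicate 3 in both, without Malt1_V87R replicate 1 or 3, and without Malt1_L88D replicate 3. Psat1 was lost without Vector replicate 1 or 3 in both, without any single Malt1_V87R library, and without Malt1_L88D replicate 2, and Shmt2 without Vector replicate 1 or 3 or any single Malt1_L88D library.

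Set directly against Malt1_WT, both substitutions were lower for nearly every member. In Malt1_V87R against Malt1_WT, 29 of 31 members fell and 1 rose, where 23.4% and 24.9% of all genes did, with a median log2 fold change of -0.77 against 0.02 for all genes. In Malt1_L88D against Malt1_WT, 29 fell and 0 rose (22.3% and 22.8% of all), with the same median of -0.77. Gdf15 was -2.40 ± 0.09 (SE, edgeR adjusted p = 1.7e-18) in Malt1_V87R and -2.37 ± 0.10 (SE, edgeR adjusted p = 3.9e-18) in Malt1_L88D. Sesn2 was -1.62 ± 0.05 (SE, edgeR adjusted p = 1.1e-21) and -1.66 ± 0.05 (SE, edgeR adjusted p = 1.0e-21), and Slc7a11 -1.54 ± 0.11 (SE, edgeR adjusted p = 4.9e-08) and -1.52 ± 0.11 (SE, edgeR adjusted p = 6.7e-08). Atf4 was -0.64 ± 0.04 (SE, edgeR adjusted p = 3.4e-13) and -0.71 ± 0.04 (SE, edgeR adjusted p = 4.1e-14). The 1 that rose was Phgdh in Malt1_V87R, at 0.11 ± 0.04 (SE, edgeR adjusted p = 0.022), a call lost in 8 of 15 alternatives, among them upper-quartile scaling and the fits without Malt1_WT replicate 2 or 3. Eif2ak3 passed in neither, nor did Phgdh in Malt1_L88D. Both calls of Cth against Malt1_WT rest on 25 summed counts against 11 and 6, and both were lost without Malt1_WT replicate 2. Of the 11 alternatives that gave Cth a value, the Malt1_V87R call was lost in 8, DESeq2 and limma-voom among them. The Malt1_L88D call was lost in 2.

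Against Malt1_PD the picture was alike, and each comparison had its own test. In Malt1_V87R against Malt1_PD, 29 members fell and 0 rose, where 21.1% and 20.4% of all genes did, with a median of -0.68. In Malt1_L88D against Malt1_PD, 29 fell and 0 rose (21.4% and 20% of all), with a median of -0.67. Eif2ak3, which passed against neither the vector nor Malt1_WT, was lower here, at -0.23 ± 0.06 (SE, edgeR adjusted p = 0.002) and -0.25 ± 0.06 (SE, edgeR adjusted p = 0.0015). Phgdh passed in neither, Cth did not pass in Malt1_V87R, and Pycr1 did not in Malt1_L88D. The call of Cth in Malt1_L88D rests on 6 summed counts against 26 in Malt1_PD, and was lost in 3 of 11 alternatives. These comparisons share libraries with those above and are not independent of them.

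No member passed the test between the 2 substitutions. In Malt1_V87R against Malt1_L88D, 0 of 31 members passed edgeR's test, as did 0 of all 14571 tested genes (0%), while 1 member, Slc7a1, had an unadjusted p under 0.05, and DESeq2 and limma-voom also called 0 members. Without Cth, log2 fold changes ran from -0.12 (Pycr1) to 0.10 (Slc7a1). The 95% interval lay within 1.5-fold for 30 of 31 members and within 1.25-fold for 29. The widest bounds were -0.34 for Pycr1 and 0.29 for Ddit3, and Cth spanned -0.96 to 2.28. The test does not show that the 2 forms act alike.

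Most of the members that passed between Malt1_PD and Malt1_WT were lower in Malt1_PD. In Malt1_PD against Malt1_WT, 8 of 31 fell and 4 rose, where 10.7% and 12.6% of all genes did, with a median of -0.05 against 0.01 for all genes. The share that rose was close to that of all genes, and the share that fell was above it. Those that fell were Slc7a11, Aldh1l2, Gdf15, Cebpb, Ppp1r15a, Chac1, Trib3 and Sesn2, which include all 4 effectors other than Eif2ak3. Slc7a11 was -0.67 ± 0.10 (SE, edgeR adjusted p = 4.3e-04), from 167 ± 9.59 CPM to 105 ± 16. Aldh1l2 was -0.60 ± 0.07 (SE, edgeR adjusted p = 2.4e-06), from 231 ± 7.44 to 152 ± 15.5. Gdf15 was -0.40 ± 0.08 (SE, edgeR adjusted p = 3.3e-04), Cebpb -0.31 ± 0.06 (SE, edgeR adjusted p = 2.7e-04) and Ppp1r15a -0.26 ± 0.05 (SE, edgeR adjusted p = 1.9e-04). Trib3 was -0.22 ± 0.05 (SE, edgeR adjusted p = 0.002) and Sesn2 -0.19 ± 0.04 (SE, edgeR adjusted p = 0.002). These 7 passed under all 13 alternatives, while Chac1, at -0.26 ± 0.10 (SE, edgeR adjusted p = 0.0499), was lost in 8 of 13.

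The 4 that rose in Malt1_PD against Malt1_WT were smaller changes and less firm. Phgdh was 0.16 ± 0.04 (SE, edgeR adjusted p = 0.0056), Shmt2 0.16 ± 0.04 (SE, edgeR adjusted p = 0.0052), Slc7a5 0.13 ± 0.04 (SE, edgeR adjusted p = 0.0097) and Psat1 0.11 ± 0.03 (SE, edgeR adjusted p = 0.016). All 4 were lost without Malt1_WT replicate 2 and also without Malt1_PD replicate 1, and either step left 7 members called, all lower. Atf4 did not pass, at -0.08 ± 0.04 (SE, edgeR adjusted p = 0.18) with an interval of -0.17 to 0.01, nor did Asns (-0.04 to 0.12) or Mthfd2 (-0.04 to 0.11). Over all genes, upper-quartile scaling changed the split from 1834 higher and 1565 lower to 1365 higher and 1766 lower, and the members' split from 4 and 8 to 3 and 9.

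**Figure D4:**
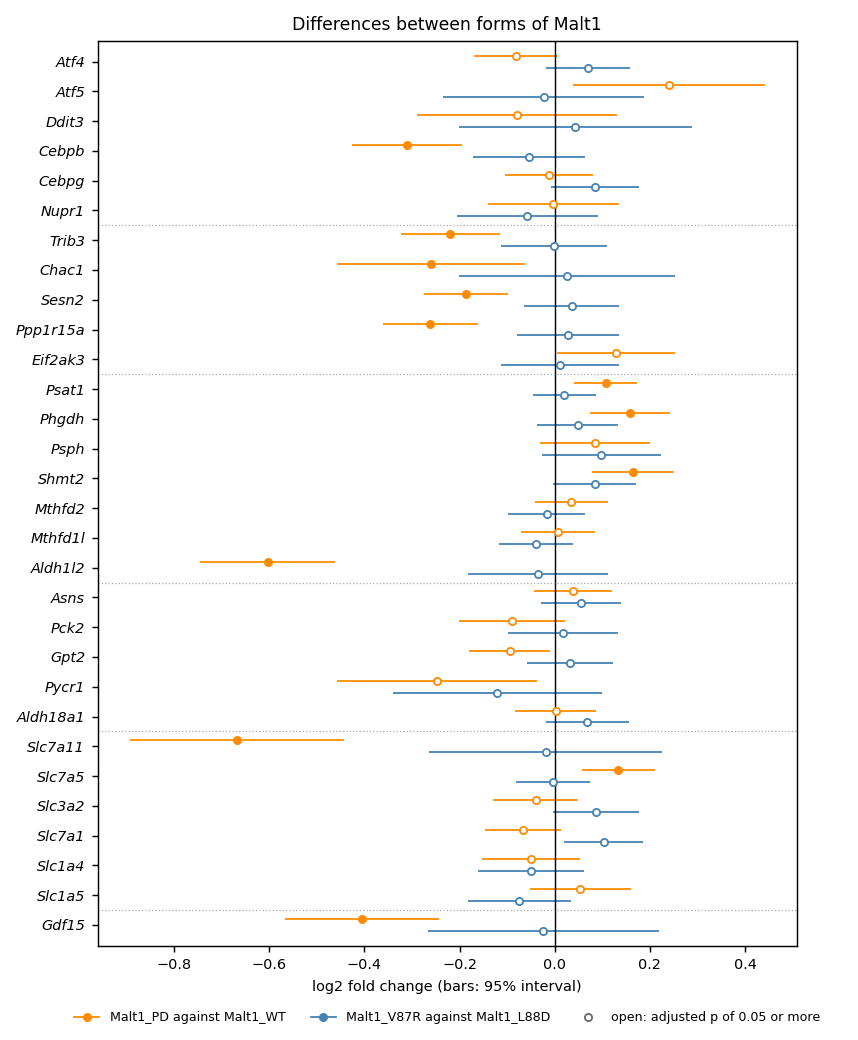
Log2 fold change with its 95% interval for 30 tested members in Malt1_PD against Malt1_WT and in Malt1_V87R against Malt1_L88D; filled points passed an edgeR adjusted p of 0.05. Slc7a11 (-0.67) and Aldh1l2 (-0.60) lie furthest left in the first, and no point of the second is filled.

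Tested members with a promoter match rose in 8 of 8 cases in Malt1_WT against the vector, with a median of 0.98. Those with a window but no match rose in 15 of 19, with 1 that fell and a median of 0.82. Of all tested members 26 of 31 rose there, and of all tested genes 27.2% rose and 27.7% fell. Gdf15, which rose most, had no match in its window. The difference between the 2 medians was not tested.

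Other genes of the pathway were read from lists chosen with earlier results of these data known. Their counts stand against the shares of all genes given above, in Malt1_WT 27.2% higher and 27.7% lower and in Malt1_PD 22.8% and 22%. The kinases, phosphatase subunits and exchange factors that set eIF2 activity came first: of 15 tested, 6 rose and 4 fell in Malt1_WT against the vector, with a median of 0.00, and the share that fell was close to that of all genes. Eif2s2, the beta subunit of eIF2, rose by 0.39 ± 0.03 (SE, edgeR adjusted p = 3.8e-11). Of the exchange factor eIF2B, Eif2b2 rose by 0.33 ± 0.06 (SE, edgeR adjusted p = 3.3e-05) and Eif2b1 fell, at -0.29 ± 0.06 (SE, edgeR adjusted p = 5.0e-05).

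Aminoacyl-tRNA synthetases, which load amino acids on tRNA, were read as those known as ATF4 targets and the other cytosolic ones. Of 13 such synthetases, 12 rose and 1, Vars, fell in Malt1_WT against the vector, with a median of 0.55. Cars rose by 0.94 ± 0.05 (SE, edgeR adjusted p = 1.4e-16), from 88.7 ± 3.21 to 170.1 ± 5.92 CPM. Tars rose by 0.86 ± 0.04 (SE, edgeR adjusted p = 2.4e-17) and Nars by 0.73 ± 0.03 (SE, edgeR adjusted p = 3.2e-17). Of 7 other cytosolic synthetases, Rars rose, at 0.57 ± 0.04 (SE, edgeR adjusted p = 2.5e-13), Dars and Hars fell, at -0.31 ± 0.06 (SE, edgeR adjusted p = 3.1e-05) and -0.12 ± 0.04 (SE, edgeR adjusted p = 0.02), and 4 did not pass, with a median of 0.02. In Malt1_PD, 12 of the 13 rose and 1 fell, and 2 of the 7 rose. In Malt1_V87R 4 of the 13 rose and 0 fell, where 7.01% and 4.7% of all genes did, with a median of 0.07. In Malt1_L88D 2 rose and 1 fell, close to the 8.96% and 8.43% of all genes, with a median of 0.06.

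**Figure D5:**
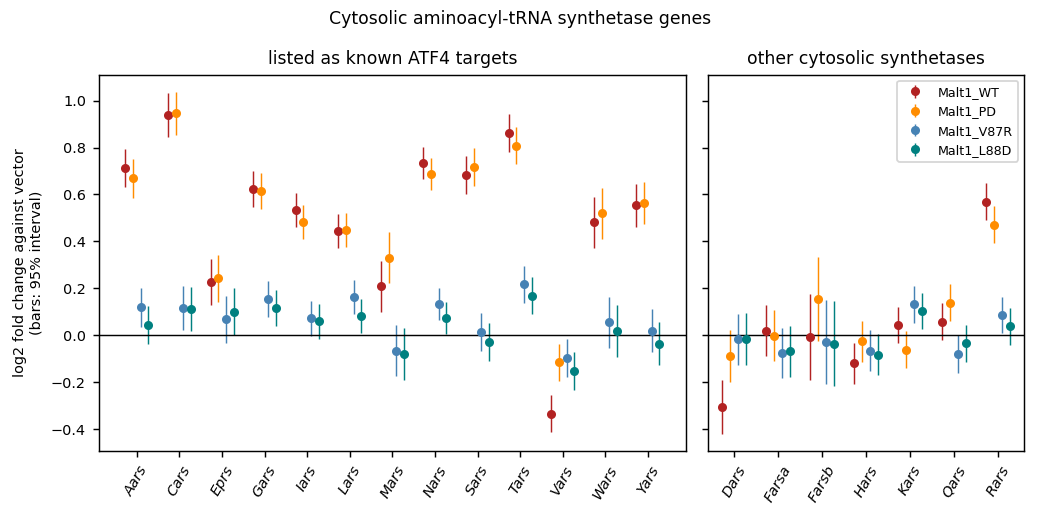
Log2 fold change against the vector with its 95% interval for 13 cytosolic aminoacyl-tRNA synthetases listed as ATF4 targets (left) and 7 others (right), for each Malt1 form. Malt1_WT and Malt1_PD points lie above 0 for all genes on the left but Vars, and on the right clearly for Rars.

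Of 22 other reported ATF4 targets, 19 rose and 2 fell in Malt1_WT against the vector, with a median of 0.55, and 17 rose and 2 fell in Malt1_PD. Cdkn1a, the p21 cell cycle inhibitor, rose by 1.88 ± 0.04 (SE, edgeR adjusted p = 2.7e-24) in Malt1_WT and 1.58 ± 0.04 (SE, edgeR adjusted p = 2.7e-22) in Malt1_PD. Ddit4, an mTORC1 inhibitor also known as REDD1, rose by 1.69 ± 0.05 (SE, edgeR adjusted p = 2.5e-22) and 1.58 ± 0.05 (SE, edgeR adjusted p = 2.3e-21). Txnip, which restrains glucose uptake, fell in all 4 forms, at -1.66 ± 0.06 (SE, edgeR adjusted p = 9.0e-20) in Malt1_WT and -0.55 ± 0.05 (SE, edgeR adjusted p = 8.6e-09) in Malt1_L88D. Cdkn1a and Ddit4 are induced by other pathways as well, and the list does not separate them.

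The targets of ATF6 and XBP1, which act beside ATF4 when proteins misfold in the endoplasmic reticulum, also rose. Of 20 tested, 19 rose and 0 fell in Malt1_WT and 20 rose in Malt1_PD, with medians of 0.48 and 0.71. In Malt1_V87R 0 passed, where 7.01% of all genes rose and 4.7% fell. In Malt1_L88D 0 rose and 5 fell, where 8.96% and 8.43% of all genes did. Hspa5, the chaperone BiP, rose by 1.31 ± 0.04 (SE, edgeR adjusted p = 3.8e-22) in Malt1_WT and 1.55 ± 0.04 (SE, edgeR adjusted p = 2.6e-23) in Malt1_PD. Between Malt1_PD and Malt1_WT, 14 of these 20 genes rose and 0 fell, with a median of 0.23, where 12.6% of all genes rose and 10.7% fell. Of the 31 stress response members, 4 rose and 8 fell in that comparison, with a median of -0.05, and the difference between the lists was not tested. Hspa5 was 0.24 ± 0.04 (SE, edgeR adjusted p = 9.0e-06) and Creld2, another chaperone-associated target, 0.33 ± 0.05 (SE, edgeR adjusted p = 1.4e-05).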

How the data were processed

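Total RNA of 15 E0771 libraries was sequenced as stranded paired ends of 150 bp, per the labels' protocols. The authors deposited raw counts per gene symbol. Per the submitters' processing notes, reads on build GRCm38.p6 were handled with featureCounts 1.6.3, STAR 2.7.3a and Trim Galore 0.6.0. Whether counting used strand, how it treated multimapping reads, and which gene models it used is not given in the sources used here. Columns were matched to samples by name. The Malt1_PD columns are named after a substituted cysteine, and were assigned to the 1 construct without columns of its own name, as unnumbered replicates of that group. No 2 libraries of a group agreed within sampling noise.

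From the counts, edgeR 4.0.16 in R 4.3.3 was run on all 15 libraries at once: filterByExpr by group, TMM scaling (factors 0.973 to 1.015), and a robust quasi-likelihood fit with 1 mean per group and 10 two-sided contrasts, with Benjamini-Hochberg adjustment of each contrast over all 14571 tested genes and calls at 0.05. A gene "rose" or "fell" when it passed. Between replicates the common coefficient of variation was 4.61%, and intervals are 95% intervals. Gene positions and exon lengths come from GENCODE M21, and promoters from RefSeq. On simulated counts for Malt1_WT against the vector over 14571 genes, with 50 genes changed at each size, the test recovered 52% for 1.25-fold, 70% for 1.5-fold, 82% for 2-fold and 94% for 4-fold changes. Genes left unchanged made up 12 of its 161 calls. Far fewer genes were changed in that simulation than were called in the real comparison, with 3958 higher and 4039 lower. These rates therefore need not hold for the real comparison.

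The members and all lists were chosen with earlier results of these data known. Values in every library were given for Malt1, Atf4, Atf3, Ddit3, Trib3, Asns and, in each role, up to 4 members with the widest spread of group means. From each other list up to 3 called genes with the largest change in Malt1_WT against the vector were named, without values in every library. Other members were named to account for all 34. Alternatives were RLE and upper-quartile scaling, DESeq2 1.42.0, limma-voom (limma 3.58.1), no filter and a stricter filter of 5 CPM in 3 libraries, a fit of only the libraries compared, a replicate block, and leaving out each library.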

Additional observations from a re-analysis of the deposited data

How the results depend on the processing

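No call of a single member changed direction: of 4370 member values under the alternatives, 4139 kept their direction and side of the threshold, 137 no longer passed, 30 newly passed, 0 called values reversed, and 64 uncalled values changed sign. The scaling alternatives moved the median of all genes by at most 0.0253 on the log2 scale. In Malt1_V87R against the vector, the 16 members called became 9 to 11 when 1 library was left out: 10 without Vector replicate 1 or 3, and 9 without Malt1_V87R replicate 2 or 3. In Malt1_PD against Malt1_WT, the 12 members called became 7 to 13, with 7 without Malt1_WT replicate 2 or Malt1_PD replicate 1. The cause was not tested. The counts of the other 8 comparisons stayed within 1.5 times the count reported under every alternative run.

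No pairing by replicate number was seen: the deviations of 18 same-numbered pairs correlated at -0.05 to 0.09, and 0 exceeded 0.1. With 3 libraries per group this cannot tell whether equal numbers mark a shared culture or day. With a replicate block on the 12 numbered libraries (Malt1_PD columns carry no number of the labels), 28 members were called in Malt1_WT against the vector, 20 in Malt1_V87R, 16 in Malt1_L88D, 29 in Malt1_V87R against Malt1_WT, 28 in Malt1_L88D against Malt1_WT and 0 in Malt1_V87R against Malt1_L88D. The same libraries without the block, a fit added after seeing the data, gave 28, 19, 16, 29, 28 and 0. Depth limited Atf3, Vldlr, Stc2 and Cth, which had at most 14 counts in any library.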

Other observations

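Genes near the members in function but outside the member list were read as well. Of 13 other amino acid transporters, 9 rose and 1 fell in Malt1_WT against the vector, where 27.2% and 27.7% of all genes did, with a median log2 fold change of 0.30. Slc1a2, a glutamate carrier, rose by 2.30 ± 0.18 (SE, edgeR adjusted p = 8.4e-12) in Malt1_WT and 1.55 ± 0.19 (SE, edgeR adjusted p = 1.0e-07) in Malt1_PD, from 1.43 ± 0.139 CPM to 7.01 ± 0.784 and 4.16 ± 0.657. Slc7a2, a carrier of cationic amino acids, rose by 2.90 ± 0.39 (SE, edgeR adjusted p = 3.7e-07) in Malt1_WT, and Slc7a8, a neutral amino acid carrier, by 2.27 ± 0.28 (SE, edgeR adjusted p = 5.8e-08), both below 4 CPM on average.

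Of 16 other genes of amino acid metabolism, 6 rose and 7 fell in the same comparison, against the same shares of all genes, with a median of -0.16. Odc1, the first enzyme of polyamine synthesis, rose by 1.20 ± 0.03 (SE, edgeR adjusted p = 1.2e-22) in Malt1_WT and 1.06 ± 0.03 (SE, edgeR adjusted p = 3.6e-21) in Malt1_PD. Gclm, a subunit of the enzyme that starts glutathione synthesis, rose by 1.06 ± 0.05 (SE, edgeR adjusted p = 7.0e-17) and 0.61 ± 0.05 (SE, edgeR adjusted p = 3.1e-11), and was lower in Malt1_PD than in Malt1_WT, at -0.45 ± 0.05 (SE, edgeR adjusted p = 4.1e-08). Ass1, which makes argininosuccinate, rose by 0.91 ± 0.04 (SE, edgeR adjusted p = 2.8e-16) and 0.83 ± 0.04 (SE, edgeR adjusted p = 3.7e-15).

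Of 18 other folate and one-carbon genes, 4 rose and 5 fell in Malt1_WT, close to the 27.2% and 27.7% of all genes, with a median of -0.05. The cytosolic Mthfd1 fell, at -0.35 ± 0.04 (SE, edgeR adjusted p = 3.5e-08), and was also lower in Malt1_PD, at -0.23 ± 0.04 (SE, edgeR adjusted p = 2.7e-05).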
